A study of Mus musculus with 13 samples.

Results

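The antigen receptor of a B cell is a membrane immunoglobulin held by the signalling chains Cd79a and Cd79b. After antigen binding, Src-family kinases phosphorylate the tails of both chains, the kinase Syk docks there, and the adaptor Blnk brings the kinase Btk and a phospholipase C together, which leads to calcium release and to NF-kappaB activation. The scaffold Bank1, the complement receptor Cr2 (CD21), the inhibitory sialic acid receptor Cd22 and the membrane protein Ms4a1 (CD20) tune this signal. The 9 genes Cd79a, Cd79b, Ms4a1, Cr2, Cd22, Blnk, Bank1, Btk and Syk were chosen for these roles by their symbols, and all 9 were found among the 57010 genes listed for both Parse experiments. Their levels, and their detection at different sequencing depths, are described here in B cells, plasma cells and other cells of mouse lymphoid tissue and in the few B cells of the thymus.

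The data are UMI counts (unique molecular identifiers, 1 per captured RNA molecule) per cell and gene from split-pool barcoding, in which the first-round well names the sample and combinations of wells name the cell. The Parse WT kit held 20 samples of thymus and spleen from young and adult mice, for which the labels list control and chronic stress without assigning them to samples, and the Parse Mini kit held 4 control thymus samples, T-1-A, T-1-B, T-2-A and T-2-B. The WT samples tenxP_1 to tenxP_4 were taken by their name as the benchmark's thymus lobes, from 2 female C57BL/6N mice aged 2 months, and 36417 of their 39369 kept cells were T-lineage. The Mini samples likewise came from 2 young females of this strain with 2 technical replicates of each, so that neither set of 4 holds 4 animals. The other 16 samples (CVS_C_1 to CVS_C_5, CVS_S_1 to CVS_S_6, YD_C_1 to YD_C_5) have no tissue, age or treatment of their own in the labels, so they are given as a range and median, and no test between samples was made.

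Of 148709 cells, 140038 passed quality control, and the WT samples had median depths between 1527 and 8039 UMIs per cell. Cell classes were called from clusters made without the 9 genes and named from marker lists. In the other samples they gave 27361 B cell-like cells, 1222 plasma cell-like cells and 28808 cells of non-B classes, while 14.2% of the kept cells lay in unnamed clusters, some of which held B cell markers. Another 12099 B cell-like cells lay in 7 clusters with at least 40% of their cells from 1 sample (CVS_C_3, CVS_C_5, CVS_S_5, CVS_S_2 or CVS_S_1), and these were kept apart. The kits shared 460 cell barcodes, and no barcode was repeated within a kit. Of 582 cells of clusters led by CVS_C_3 that carried the name of another WT sample, 547 (94.0%) lay in first-round plate columns 7 to 9, where CVS_C_3 was loaded, against 23.2% of all cells of the other WT samples. Of the 582 cells, 207 were in thymic samples.

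The 9 genes lie on 7 chromosomes, with coordinates given here on GRCm38 (mm10) and gene models from GENCODE M21. Cd79a (ENSMUSG00000003379, chr7:24897381-24902197, plus strand) and Cd79b (ENSMUSG00000040592, chr11:106311341-106314762, minus strand) are short genes of 4.82 and 3.42 kb. Ms4a1 (ENSMUSG00000024673) spans chr19:11249675-11266241 and Cd22 (ENSMUSG00000030577) spans chr7:30865402-30880342, both on the minus strand. Cr2 (ENSMUSG00000026616, chr1:195136811-195176716, minus strand), Btk (ENSMUSG00000031264, chrX:134542336-134583570, minus strand), Blnk (ENSMUSG00000061132, chr19:40928927-40994535, minus strand) and Syk (ENSMUSG00000021457, chr13:52583173-52648792, plus strand) span between 39.9 and 65.6 kb. Bank1 (ENSMUSG00000037922, chr3:136053363-136326066, minus strand) is 273 kb long, and exons make up 2.75% of it. Annotated genes on the opposite strand overlap 4 of the 9. The antisense gene Gm31243 over Bank1 held 14572 UMIs in the other samples against 736011 of Bank1, and 4930526L06Rik over Ms4a1 held 5479 against 155616. Gm29439 over Cd22 held 416 UMIs against 179264, and the pseudogene Gm15154 over Btk held 5 against 58871. Whether the counting used strand is not stated in the sources used here, so reads of a gene and its antisense partner may be shared between them.

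Promoters of 3 members are shown because Cd79a, Cd22 and Blnk represent the receptor, the inhibitory co-receptor and the adaptor, and because they differ in the short motifs they carry. The sequences are RefSeq's (GRCm38.p6), 300 bases from 250 before to 50 after the RefSeq transcription start, read along the gene's strand, at chr7:24897247-24897546 (plus) for Cd79a, chr7:30878979-30879278 (minus) for Cd22 and chr19:40994172-40994471 (minus) for Blnk. Capitals mark matches, on either strand, to the E-box CAGGTG of E2A-type factors, the ETS-type motif CAGGAAG, the EBF-type motif (TCCC, any 2 bases, GGGA) and the octamer ATGCAAAT.
Cd79a: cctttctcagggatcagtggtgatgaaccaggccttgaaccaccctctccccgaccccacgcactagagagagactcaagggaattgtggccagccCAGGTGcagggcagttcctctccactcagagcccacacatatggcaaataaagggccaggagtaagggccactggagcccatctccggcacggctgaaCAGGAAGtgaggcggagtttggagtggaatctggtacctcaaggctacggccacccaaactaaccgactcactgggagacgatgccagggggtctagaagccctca
Cd22: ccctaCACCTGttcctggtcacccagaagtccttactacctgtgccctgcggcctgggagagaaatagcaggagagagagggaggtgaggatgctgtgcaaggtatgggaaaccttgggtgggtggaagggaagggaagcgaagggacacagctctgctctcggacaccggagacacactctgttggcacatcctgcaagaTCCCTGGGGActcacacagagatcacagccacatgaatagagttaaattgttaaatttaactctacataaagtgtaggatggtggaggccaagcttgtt
Blnk: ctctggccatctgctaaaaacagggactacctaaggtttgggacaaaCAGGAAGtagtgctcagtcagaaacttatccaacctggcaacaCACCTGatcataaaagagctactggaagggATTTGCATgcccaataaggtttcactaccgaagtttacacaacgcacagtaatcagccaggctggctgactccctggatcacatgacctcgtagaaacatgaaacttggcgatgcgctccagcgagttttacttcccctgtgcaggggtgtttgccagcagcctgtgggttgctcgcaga
In Cd79a the E-box starts 154 bases and the ETS-type motif 56 bases before the start. In Cd22 the E-box lies 245 bases and the EBF-type motif 49 bases before it. In Blnk the ETS-type motif, the E-box and the octamer lie 203, 160 and 130 bases before it. The Cd22 and Blnk windows lie wholly inside the GENCODE spans given above, so RefSeq and GENCODE place these starts differently. RefSeq windows were matched for 7 of the 9 genes (8 windows, with 2 for Syk), and Cd79b and Ms4a1 are named without one. The E-box was present in 7 of the 8 windows, all but that of Btk, and in 20.2% of all 32851 windows. The ETS-type motif was present in 2 of the 8 windows and in 13.3% of all windows, the octamer in 1 of 8 and in 1.74%, and the EBF-type motif in 1 of 8 and in 0.904%. The motifs were chosen after sequences of these windows had been seen, and a match is a run of letters, not a bound site.

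In B cell-like cells of the other samples all 9 genes were measured. Levels are UMIs scaled to a total of 1000000 UMIs outside ribosomal RNA (CPM), pooled over cells, and their 95% exact Poisson intervals cover counting error only. The receptor chains had 294 CPM [289.9 to 298] for Cd79a and 189.6 CPM [186 to 193] for Cd79b. The surface proteins Cd22, Cr2 and Ms4a1 had 994, 865 and 679 CPM. Inside the cell, the adaptor Blnk had 1107 CPM [1099 to 1114], the scaffold Bank1 3258 CPM [3245 to 3271], and the kinases Syk 1696 CPM [1687 to 1706] and Btk 281 CPM [277 to 284].

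CPM takes no account of gene length, so genes were set against each other per length. Per kilobase of gene, the level was 66.5 CPM for Cd22, 61.0 CPM for Cd79a, 55.4 CPM for Cd79b and 41.0 CPM for Ms4a1. Syk had 25.8 CPM per kilobase of gene, Cr2 21.7 CPM, Blnk 16.9 CPM, Bank1 11.9 CPM and Btk 6.80 CPM. Neighbours in this order overlapped in their ranges over the 16 samples, though Bank1 and Btk did so only through CVS_S_5. Per kilobase of annotated exon, the order was another one, with Bank1 first (435 CPM), Cd79a next (202 CPM), Cd79b sixth (133 CPM) and Btk last (89.1 CPM). The share of intronic reads among the UMIs of Bank1 was not tested.

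Over the 16 samples, the level of Cd79a in B cell-like cells ranged from 138 CPM (CVS_S_5) through a median of 280.4 to 426 CPM (YD_C_4). Cd79b ranged from 96.8 CPM (CVS_S_5) through a median of 157 to 261 CPM (YD_C_3). CVS_S_5, with 129 such cells, was the lowest sample for 6 of the 9 genes, and without it the lowest sample was CVS_S_4 for Cd79a, at 186 CPM, and CVS_S_1 for Cd79b, at 123 CPM. Ms4a1 ranged from 355 CPM in CVS_S_5 and 466 CPM in CVS_C_2 through a median of 602 to 839.8 CPM. Cr2 was the most variable of the 9 genes, from 147 CPM in CVS_S_5 and 496 CPM in CVS_C_5 through a median of 787 to 1212 CPM in YD_C_2. Cd22 ranged from 433 CPM in CVS_S_5 and 708 CPM in CVS_C_2 through a median of 981 to 1293 CPM.

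Blnk ranged from 779 CPM (CVS_C_2) through a median of 1087 to 1295 CPM (YD_C_5). Btk ranged from 206 CPM (CVS_C_2) through 279 to 341 CPM, and here CVS_S_5 was the highest sample. Syk ranged from 1247 CPM (CVS_S_6) through 1574 to 2106 CPM (CVS_C_5). The highest sample was at most 1.69-fold above the lowest for Blnk, Btk and Syk, and between 2.37-fold and 8.22-fold above it for the other 6 genes. Without CVS_S_5 these 6 lay between 1.80-fold (Ms4a1) and 2.44-fold (Cr2), and Blnk, Btk and Syk between 1.52-fold and 1.69-fold. Bank1 ranged from 1193 CPM in CVS_S_5 and 2299 CPM in CVS_C_2 through 3141 to 4268 CPM in CVS_C_3.

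**Figure D1:**
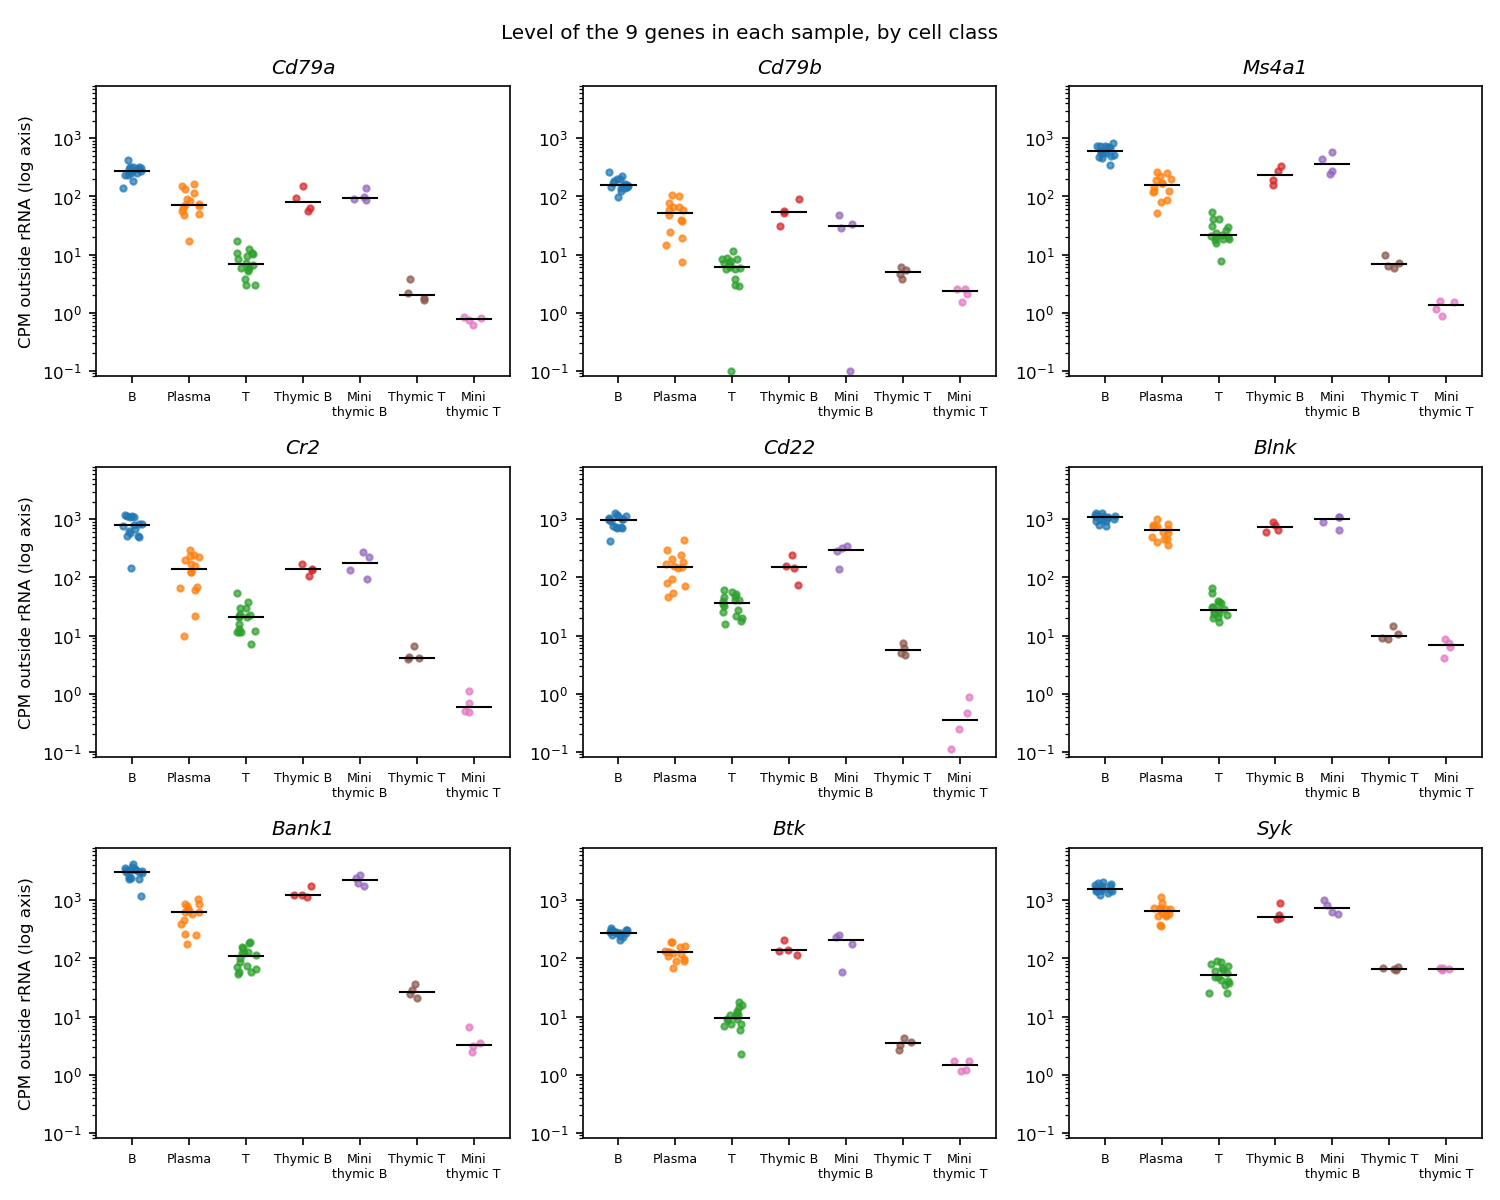
Level (CPM outside ribosomal RNA, log axis) of each gene in B cell-like (B), plasma cell-like and T cell-like cells of the other samples, and in B cell-like and T-lineage cells of the WT and Mini thymic samples. Each point is a sample with at least 20 cells of the class, horizontal lines are medians over samples, and a point at 0.1 stands for 0 UMIs. The medians of B cell-like cells of the other samples lie highest for each gene, and Syk in thymocytes lies at the same height in both kits (66.0 and 66.5 CPM).

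Detection in single cells differed widely among the 9 genes. In the 27361 B cell-like cells, with a median of 2390 UMIs, at least 1 UMI was found in 94.4% for Bank1, 86.5% for Syk, 79.0% for Blnk, 76.1% for Cd22, 64.7% for Ms4a1, 56.3% for Cr2, 45.8% for Cd79a, 43.6% for Btk and 33.8% for Cd79b. Cd79a, Btk and Cd79b were each missed in most B cell-like cells at this depth, which does not show that these cells lacked the RNA. With each cell thinned to 1000 UMIs (24425 cells were deep enough), the shares were 86.3% for Bank1, 68.9% for Syk, 56.0% for Blnk, 52.1% for Cd22, 38.9% for Ms4a1, 37.9% for Cr2, 21.7% for Cd79a, 20.4% for Btk and 14.4% for Cd79b. The same thinned shares in T cell-like cells, which should lack most of these genes (median 2236.5 UMIs), were 6.34% for Bank1, 3.21% for Syk and between 0.451% and 2.03% for the other 7. Each of the 9 shares in B cell-like cells was above that in T cell-like cells.

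Detection of each of the 9 genes rose with depth. Cd79a was found in 18.7% of B cell-like cells with 500 to 1000 UMIs and in 83.5% of those with 8000 to 25000 UMIs, and Cd79b in 12.0% and 69.7%. Cr2 went from 31.1% to 79.2%, whereas Ms4a1, found in a like share of the shallowest cells (30.7%), reached 97.5%. Bank1 was already found in 79.7% of the shallowest cells. T cell-like cells also gained detections with depth, from 0.481% to 6.35% for Cd79a and from 9.75% to 31.5% for Bank1. The level of Bank1 was 3051 CPM in B cell-like and 199.7 CPM in T cell-like cells in the shallowest bin and 2857 and 129 CPM in the deepest. A B cell-like cell held a median of 6 of the 9 genes, 4 in the shallowest and 8 in the deepest cells. None of the 9 was found in 0.238% of B cell-like cells, and all 9 were found in 7.03%, or in 41.1% of the deepest. Plasma cell-like cells held a median of 2 of the 9 and T cell-like cells a median of 0, with none of the 9 in 69.0% of T cell-like cells.

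**Figure D2:**
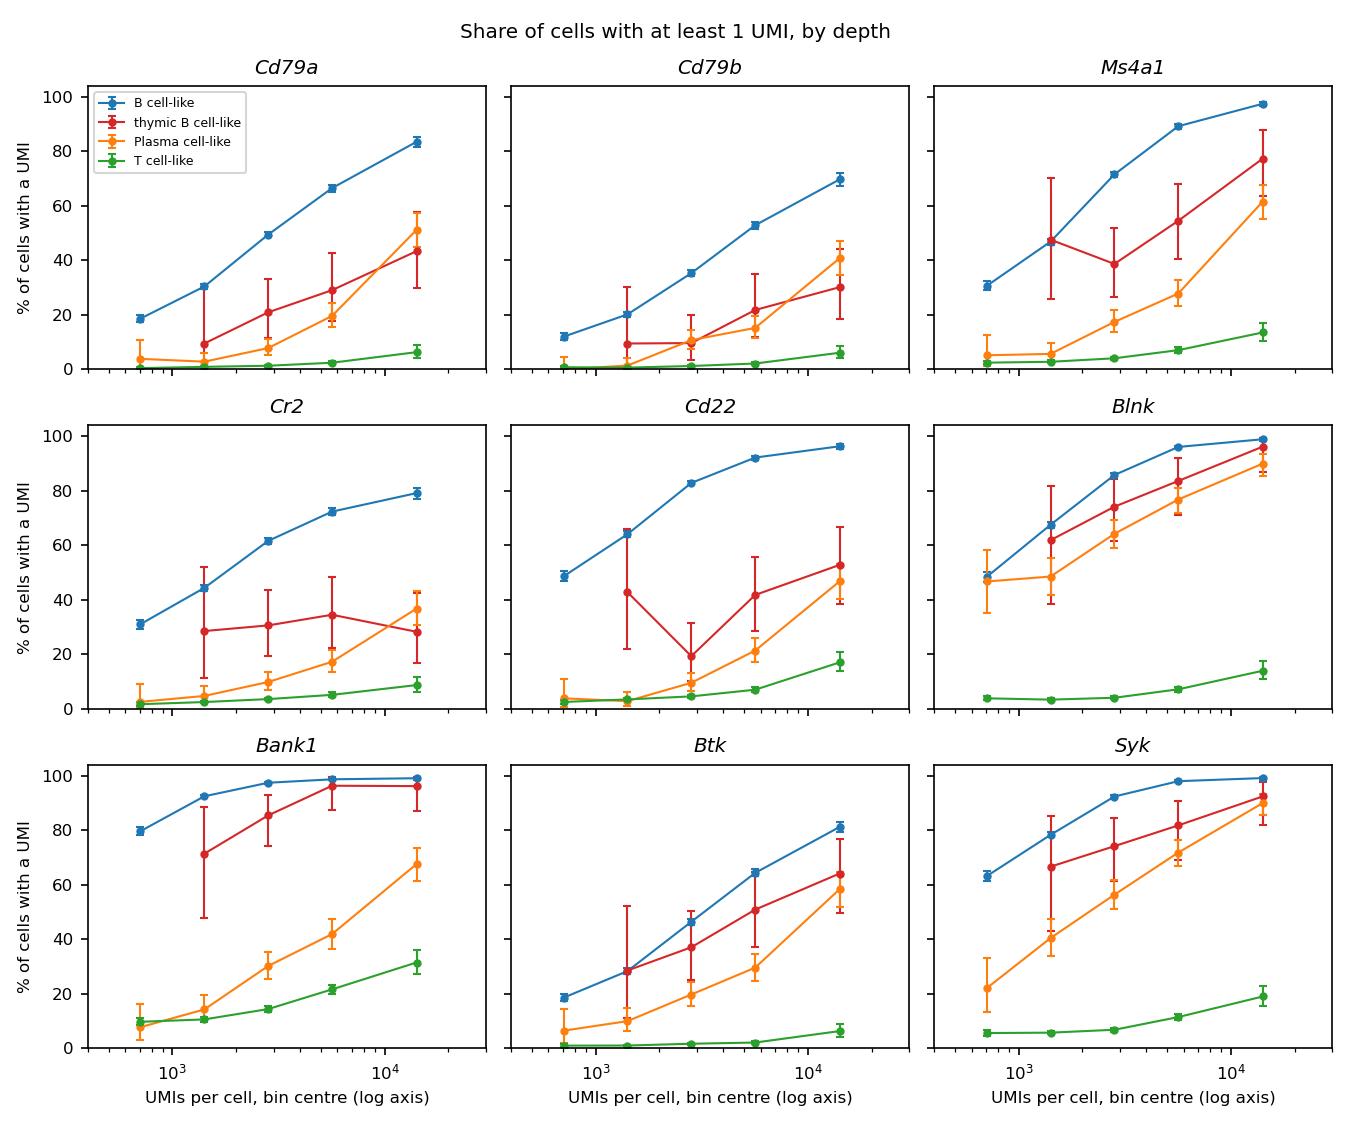
Share of cells with at least 1 UMI of each gene (%) against UMIs per cell (log axis, geometric centre of each bin from 500 to 25000 UMIs) in B cell-like, plasma cell-like and T cell-like cells of the other samples and in B cell-like cells of the WT thymic samples. Bars are 95% exact binomial intervals, and the shallowest bin of the thymic B cell-like cells held too few cells to be drawn. For Cd79a the share in B cell-like cells rises from 18.7% to 83.5%.

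The B cell-like cells fell into 9 clusters shared between samples, and Cr2 differed most among them. Cr2, the receptor for complement-coated antigen, had 2509 CPM in cluster 24, in which all 5 markers of marginal zone B cells (Cd1d1, Dtx1, Myof, S1pr3 and Cd9) were raised. It had 374 CPM in cluster 6, led among others by Fcrl5 and Nova1, a 6.71-fold difference, although 4 of the 5 markers were raised in cluster 6 as well. Cluster 24 also had the highest Cd22 (1398 CPM) and Blnk (1711 CPM) of the shared clusters. At 1000 UMIs per cell, Cr2 was found in 77.7% of the cells of cluster 24 and in 19.9% of those of cluster 6. Cluster 39, led by the early response genes Egr3, Egr1 and Egr2 and by Cd83, had 1447 CPM of Cr2 together with the lowest Syk (1088 CPM) of the shared clusters.

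The receptor chains were highest in another cluster. In cluster 23, with Cplx2, Map2 and Cd93 among its leading genes, Cd79a had 413 CPM, Cd79b 335 CPM and Ms4a1 1051 CPM, the highest of the shared clusters for all 3, while Cr2 there was at 486 CPM. Of this cluster 38.8% came from YD_C_3, just under the limit for a cluster held mostly by 1 sample. YD_C_3 was also the highest sample for Cd79b and Ms4a1. In cluster 30, with Rgs13 and S1pr2 known from germinal centre B cells, Bank1 was lowest at 1507 CPM, against 4107 CPM in cluster 0, led by Fcer2a and Ighd. In cluster 51, led by genes of cell division such as Ttk and Espl1, Cd79a (189.5 CPM), Cd79b (102 CPM), Btk (170.4 CPM) and Blnk (923 CPM) were the lowest of the shared clusters. From the lowest to the highest shared cluster the span was 3.29-fold for Cd79b, 2.73-fold for Bank1 and between 1.84-fold and 2.31-fold for the other 6 genes besides Cr2. The clusters came from the same libraries and were made from other genes of the same cells, so these are descriptions with no test.

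In 5 of the 7 clusters held mostly by 1 sample, Cr2 lay below the lowest shared cluster. It had 61.9 CPM in cluster 27 (96.5% of it from CVS_S_5), 74.6 CPM in cluster 28 (87.7% from CVS_S_2) and 109.8 CPM in cluster 20 (99.2% from CVS_C_5), against 615 CPM in cluster 13 (99.1% from CVS_C_3). In cluster 31 (62.1% from CVS_S_1) all 5 marginal zone markers passed the limit for a raised marker, and Cr2 was at 161 CPM. The limit is low, so this does not show that the markers were as high as in cluster 24. Cluster 27 was the lowest of the 7 for Ms4a1 (204 CPM), Cd79b (59.3 CPM), Cd22 (263 CPM) and Bank1 (1379 CPM), whereas its Syk, at 1899 CPM, and Blnk, at 1018 CPM, lay within the range of the shared clusters. In cluster 28 the 3 samples with at least 20 cells had 30.4 CPM (CVS_S_3), 43.2 CPM and 80.9 CPM (CVS_S_2) of Cr2, where the shared clusters of CVS_S_3 and CVS_S_2 had 523 and 631 CPM. In cluster 31 Cr2 ranged from 79.1 CPM (CVS_S_6) to 276 CPM (CVS_S_2) over 4 samples, so that in these 2 clusters Cr2 was also low within a sample. Each of the other 5 had 1 such sample, so these clusters cannot be compared between samples. Cr2 in clusters 20 and 27, at 109.8 and 61.9 CPM, lay below the 496 and 147 CPM of the shared clusters of CVS_C_5 and CVS_S_5. Cluster 13 likewise lay below the shared clusters of CVS_C_3.

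**Figure D3:**
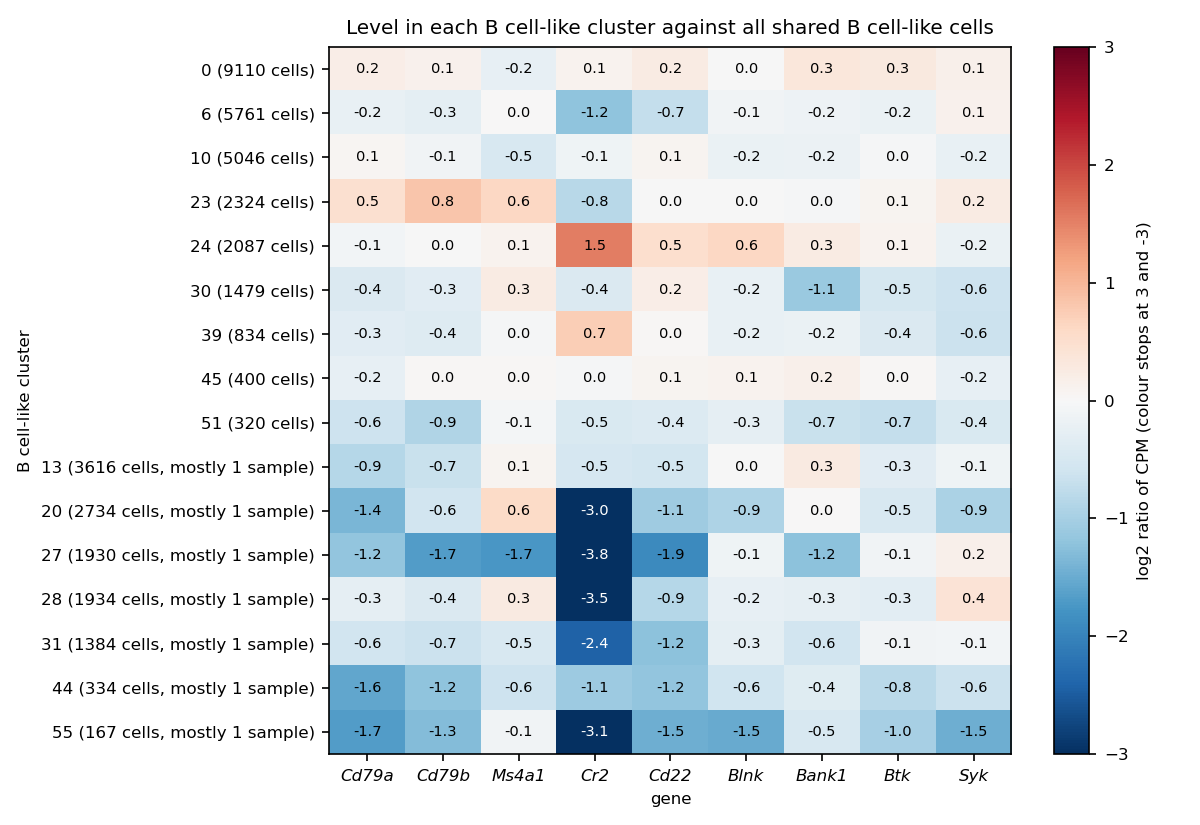
Level of each gene in each B cell-like cluster of the other samples as a log2 ratio to the pooled level of all shared B cell-like cells, with the number of cells, and colours that stop at 3 and -3. Cr2 stands highest in cluster 24 (2509 CPM) and lowest in cluster 27 (61.9 CPM), one of the clusters held mostly by 1 sample.

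Against all non-B classes of the same samples, all 9 genes were at least 2-fold higher in B cell-like cells, against 9.12% of the 4604 genes with at least 50 CPM in either. Cr2 was 12.0-fold higher, Cd79a 9.66-fold, Cd79b 9.49-fold, Ms4a1 9.30-fold, Cd22 9.26-fold, Bank1 8.38-fold and Blnk 8.08-fold. The kinases Btk and Syk, 4.72-fold and 4.07-fold higher, stood out least. For each of the 9 genes the B cell-like cells had the higher level in 16 of 16 samples, with the share of all genes not counted for this. The lowest B cell-like sample lay above the highest non-B sample for all 9, as for 5.17% of all genes tested. Clusters held mostly by 1 sample are not in these values. In cluster 27, which holds most of the B cell-like cells of CVS_S_5, Cr2 was at 61.9 CPM, below the 140.7 CPM of the highest non-B sample. For Cd79a the non-B cells ranged from 6.77 through a median of 25.9 to 72.4 CPM over the samples, all below the 138 CPM of the lowest B cell-like sample. For Syk they ranged from 276 through 412 to 1039.8 CPM, close to the 1247 CPM of the lowest B cell-like sample. The median log2 ratio was 3.21 for the 9 genes and 0.07 for all genes tested.

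Of the 28 other genes of the pathway that were listed for comparison, 26 passed the level filter, 18 were at least 2-fold higher in B cell-like cells and 2 were at least 2-fold lower (14.8% of all genes were lower). Their median log2 ratio was 1.38. The highest ratios were those of the Src-family kinase Blk (8.50-fold), the Fc receptor-like Fcrl1 (8.28-fold), the inhibitory receptors Cd72 (7.69-fold) and Siglecg (7.41-fold) and the Ras activator Rasgrp3 (6.94-fold). Fyn, a Src-family kinase also used by T cells, was 3.31-fold lower and Cd24a 2.90-fold lower.

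Among the single non-B classes the 9 genes separated into those found at higher levels in other lineages and those that were not. As clustered, Cd79a, Cd79b, Ms4a1 and Cr2 stood at 2.18% to 6.37% of the B cell-like level in T cell-like, NK cell-like and erythroid cell-like cells and at 14.0% to 30.7% in myeloid and dendritic classes. The B cell transcription factor Pax5 moved with them, at 1.88% to 5.23% and at 14.1% to 27.0% of its own B cell-like level. In cells with no UMI of Pax5 or of Ebf1, another B cell transcription factor, which make up 56.7% to 78.7% of these classes, Cd79a, Cd79b, Ms4a1 and Cr2 stood between 0.783% and 3.90% in all 8 classes. These cells were chosen by the absence of 2 B cell genes, so part of the low values is set by the choice. The part of free RNA and of doublets in the values as clustered was not tested.

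Syk, which also signals from Fc receptors and integrins in myeloid cells, stood at 64.3% of the B cell-like level in macrophage-like cells, 63.5% in neutrophil-like, 59.4% in monocyte-like, 54.1% in plasmacytoid dendritic cell-like and 39.0% in conventional dendritic cell-like cells. In cells of these 5 classes with no UMI of the 2 B cell genes it stood at 57.3%, 58.3%, 52.1%, 45.8% and 31.3%. NK cell-like cells had 22.9% and 23.5% of the B cell-like Syk level, while T cell-like cells had 2.68% and 1.84%. Btk, a kinase that myeloid cells also use, stood at 42.5% to 51.0% in the same 5 classes and at 31.5% to 40.6% in their cells with no UMI of the 2 B cell genes. In NK cell-like cells Btk was at 4.25% and 3.14%.

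Blnk and Bank1 were each found at higher levels in particular classes. Blnk stood at 64.7% of the B cell-like level in plasmacytoid dendritic cell-like cells and at 61.9% in those with no UMI of the 2 B cell genes. In macrophage-like cells Blnk stood at 35.0% and 22.8%, and in the other 6 classes at no more than 2.61% in the cells with no UMI of the 2 B cell genes. Bank1 stood at 42.6% and 30.2% in macrophage-like cells and at no more than 4.61% in the other classes under the same limit. Cd22 stood at 21.8% of the B cell-like level in conventional dendritic cell-like cells and at 8.18% in those with no UMI of the 2 genes, where the other classes had at most 3.76%.

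**Figure D4:**
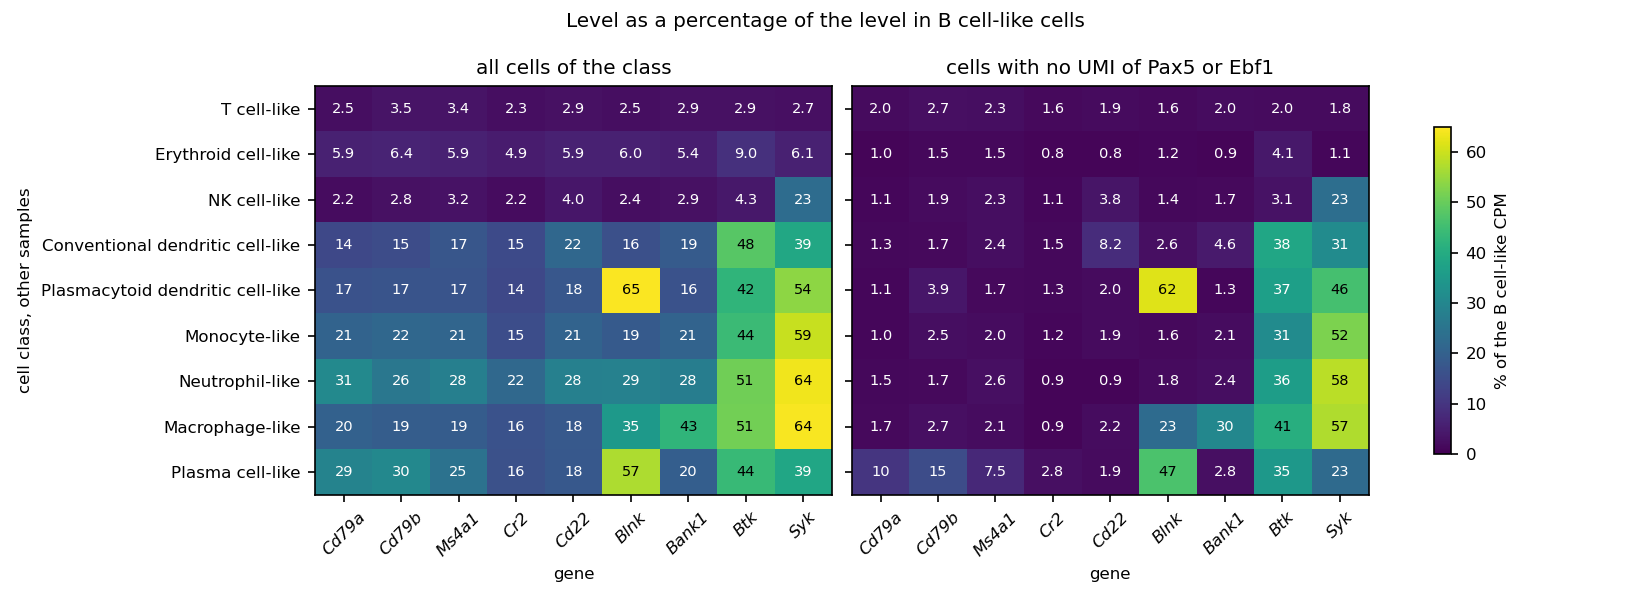
Pooled level of each gene in 9 classes of the other samples as a percentage of its level in B cell-like cells, for all cells of the class (left) and for cells with no UMI of Pax5 or Ebf1 (right). On the right Cd79a, Cd79b, Ms4a1 and Cr2 are at most 3.90% outside plasma cell-like cells, while Syk and Btk stay high in myeloid and dendritic classes and Blnk in plasmacytoid dendritic cell-like cells (61.9%).

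Plasma cells secrete immunoglobulin and carry less of the surface receptor than B cells. In the 1222 plasma cell-like cells, 8 of the 9 genes were at least 2-fold lower than in B cell-like cells, against 16.8% of 4266 genes tested, and none was 2-fold higher (9.7% of genes). The co-receptors were lowest relative to B cells, with Cr2 at 140.4 CPM (16.2% of the B cell-like level) and Cd22 at 178 CPM (17.9%). Bank1 was at 637 CPM (19.5%), Ms4a1 at 167 CPM (24.5%), Cd79a at 85.1 CPM (29.0%) and Cd79b at 57.5 CPM (30.3%). The kinases were at 654 CPM for Syk (38.6%) and 123 CPM for Btk (43.8%). Blnk, at 631 CPM [608 to 655], stood at 57.0% and was 1.75-fold lower, short of the 2-fold size. These levels moved with depth, and the 250 plasma cell-like cells with at least 8000 UMIs had the highest levels of several members. Bank1 was at 344 CPM in cells with 2000 to 4000 UMIs and at 909 CPM in the deepest, Cd22 at 85.4 and 248 CPM, Cr2 at 88.2 and 197 CPM, Ms4a1 at 106 and 222 CPM and Cd79a at 44.8 and 108 CPM. Blnk (669 and 610.0 CPM) and Syk (630.2 and 701 CPM) differed less between these bins, as did Bank1 in B cell-like cells (3466 and 2857 CPM). The median log2 ratio was -1.79 for the 9 genes and -0.38 for all genes tested.

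In each of the 14 samples with at least 20 plasma cell-like cells, all 9 genes were lower there than in the B cell-like cells, as were 26.4% of all genes. The highest plasma cell-like sample lay below the lowest B cell-like sample for 4 of the 9, against 6.38% of all genes. These were Ms4a1, with plasma cell-like samples from 52.2 through a median of 157 to 268 CPM, Bank1 with 176 through 635 to 1075 CPM, Btk with 69.6 through 127 to 192 CPM and Syk with 360.2 through 656 to 1156 CPM. The samples of Cr2, from 9.80 through 139 to 293 CPM, overlapped with the 147 CPM of the B cell-like cells of CVS_S_5. Blnk ranged from 369.8 through 647 to 1024 CPM and reached into the B cell-like range.

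Many plasma cell-like cells held UMIs of B cell genes, and Pax5 stood at 16.2% of its B cell-like level, as did Cr2. In the 449 plasma cell-like cells (36.7%) with no UMI of Pax5 or Ebf1, Blnk stood at 46.6% of the B cell-like level, Btk at 34.7%, Syk at 22.5%, Cd79b at 15.2% and Cd79a at 10.1%. Ms4a1 (7.46%), Bank1 (2.78%), Cr2 (2.76%) and Cd22 (1.90%) were nearer to the 1.59% to 2.32% of T cell-like cells chosen in the same way. All 9 genes were at least 2-fold lower in these cells, but the share of all genes was not counted for them. They were also chosen by the absence of 2 B cell genes, so part of this is set by the choice. Cd79a had 30 UMIs and Cd79b 29 there, a ratio of 0.967, against 0.645 UMIs of Cd79b per UMI of Cd79a in B cell-like cells. At 1000 UMIs per cell (1145 cells, median 3896.5 UMIs before thinning), Blnk was found in 33.2% of all plasma cell-like cells, Syk in 30.7%, Bank1 in 19.0% and the other 6 genes in 3.28% to 7.72%.

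Of the 26 pathway genes past the level filter, 16 were at least 2-fold lower in plasma cell-like cells and none was 2-fold higher, with a median log2 ratio of -1.35. Cd72 was 6.25-fold lower, Siglecg 5.25-fold, the adaptor Pik3ap1 4.21-fold, Fcrl1 4.21-fold and the tetraspanin Cd37 4.20-fold.

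The thymus holds a small population of B cells that can present antigen to developing T cells. The 4 WT thymic samples held 208 B cell-like cells, 0.528% [0.459 to 0.605] of 39369 kept cells (95% exact binomial interval), and the Mini kit held 90 (0.467%). Per sample they were 42 of 3964, 41 of 11662, 47 of 9557 and 78 of 14186 kept cells in tenxP_1 to tenxP_4. The share was highest in tenxP_1 and lowest in tenxP_2, a spread that the interval does not cover. Most of the 208 lay in a cluster named from its cells of the other samples, so their name was not checked on the thymic cells themselves. The paper called doublets in both Parse libraries, and none were removed here. The part of doublets of B cells and thymocytes in these shares and levels was not tested. As clustered, 7 of the 9 genes were at least 2-fold lower than in B cell-like cells of the other samples, against 10.2% of 4511 genes, and none was 2-fold higher (11.2% of genes). Cd22 was at 147 CPM [124 to 172], 14.8% of the level in the other samples, and Cr2 at 127 CPM [106 to 151], 14.7%. Cd79b was at 25.1%, Cd79a at 27.6%, Ms4a1 at 31.1%, Syk at 32.2% and Bank1 at 39.2%. Btk, at 53.0%, and Blnk, at 62.7%, did not reach the 2-fold size. The count rested on how the classes were made, since classes from a gate on marker UMIs gave 2 lower genes among 373 thymic cells and clusters at a higher resolution gave 0 among 43, with 166 of the 208 cells then in an unnamed cluster.

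T cell RNA was also higher in the thymic B cell-like cells. All 9 T cell markers were found in the thymic B cell-like cells, and their summed level was 4976 CPM, against 149.6 CPM in B cell-like cells of the other samples and 9063 CPM in thymic T-lineage cells. Of the 208 cells 40 (19.2%) held no UMI of the T cell genes Cd3e, Cd3g, Cd247, Themis and Bcl11b, against 80.1% of the B cell-like cells of the other samples. Among cells without these UMIs, 4 of the 9 genes were at least 2-fold lower in the thymus, against 13.7% of 4755 genes. These were Cd79b (5 UMIs, 34.1% of the level in the other samples), Cr2 (23 UMIs, 34.3%), Cd79a (8 UMIs, 35.2%) and Cd22 (28 UMIs, 36.5%). Ms4a1 stood at 61.8%, Syk at 69.9%, Bank1 at 76.7%, Btk at 96.1% and Blnk at 119.8%. The median log2 ratio was -1.69 for the 9 genes and -0.04 for all genes as clustered, and -0.69 and 0.04 without cells that held T cell UMIs.

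Detection at equal depth was lower in the thymic cells as clustered. It rests on the same counts as the levels, and T cell UMIs are part of the depth in cells that held them. Cells without T cell UMIs were not set apart here. At 1000 UMIs per cell (191 WT thymic B cell-like cells, median 4273.5 UMIs before thinning), Bank1 was found in 59.1%, Blnk in 42.0% and Syk in 36.9%, where B cell-like cells of the other samples had 86.3%, 56.0% and 68.9%. Cd22 was found in 11.7%, Cd79a in 6.50% and Cd79b in 3.98%, against 52.1%, 21.7% and 14.4%. Thymocytes thinned alike had 0.513% for Cd22, 0.171% for Cd79a, 0.418% for Cd79b and 4.88% for Syk (median 3491 UMIs). Without thinning, Cd79a was found in 9.52% [1.17 to 30.4] of the thymic B cell-like cells with 1000 to 2000 UMIs and in 43.4% [29.8 to 57.7] of those with at least 8000 UMIs. Blnk was at 1289 CPM in the former and 468 CPM in the latter, where B cell-like cells of the other samples had 1129 and 1012 CPM.

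Of the thymic B cell-like cells 170 lay in cluster 45, with a median of 5247 UMIs. This cluster took its name and its leading genes, among them the interferon-induced Mx1 and Ifit3, from its cells of the other samples alone. The higher resolution took it apart. There a B cell-like cluster led by Mx1, Mx2 and Ifit3 held 398 cells of the other samples and 2 WT thymic cells (counted before quality control), and 166 of the 208 thymic B cell-like cells lay with 34 cells of the other samples in an unnamed cluster led by Thsd7a, Rag1 and Arpp21, in which markers of T cells and of B cells were raised. In the 170 thymic cells of cluster 45 Cd22 was at 124 CPM [103 to 149] and Cr2 at 108 CPM [88.0 to 131]. The 38 thymic B cell-like cells outside cluster 45, which include 19 of the 40 without T cell UMIs, had a median of 1126 UMIs, and 23 of them lay in the plate columns of CVS_C_3, against 23.6% of all kept thymic cells. Without these 38 cells 7 of the 9 genes were again at least 2-fold lower, with the share of all genes not counted.

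In the Mini thymic samples fewer of the 9 genes were lower. Their 90 cells as clustered, with T cell markers at 4222 CPM, had 5 of the 9 genes at least 2-fold lower, against 6.88% of 4664 genes. These were Cd79b (15.8%), Cr2 (19.4%), Cd22 (25.9%), Cd79a (35.2%) and Syk (44.3%). In the 18 of them without T cell UMIs, 3 were lower, against 13.2% of 4885 genes, and none was 2-fold higher (20.3% of genes). They were Cr2 (18 UMIs, 38.7%), Cd22 (26 UMIs, 48.9%) and Cd79b, whose 3 UMIs gave 56.8 CPM [11.7 to 166] against 193 CPM in the other samples. Cd79a, with 16 UMIs, stood at 101.5% there, where in the WT kit it was at least 2-fold lower, and Btk (29 UMIs) stood at 191% and Blnk (85 UMIs) at 144%. The median log2 ratio of the 9 genes was -1.17 as clustered (0.16 for all genes) and 0.02 without cells that held T cell UMIs (0.23 for all genes). Both kits were set against the same B cell-like cells, so the comparisons share that side.

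Over the thymic samples Cd22 in B cell-like cells was at 242, 73.5, 157 and 144 CPM in tenxP_1 to tenxP_4 and at 289.4, 140.4, 316 and 349 CPM in T-1-A, T-1-B, T-2-A and T-2-B. All 8 values lay below the 433 CPM of CVS_S_5, the lowest of the 16 other samples, which rests on 129 cells. In cluster 27, which holds most of the B cell-like cells of CVS_S_5 and was kept apart, Cd22 was at 263 CPM, within the range of the thymic samples. Blnk was at 897, 667, 789.5 and 605 CPM in the WT samples and at 646, 909, 1119.6 and 1104 CPM in the Mini samples, and overlapped with the 779 to 1295 CPM of the other samples. Cr2 was at 169.7, 136, 139.6 and 106 CPM and at 270.1, 93.6, 224 and 132 CPM, beside 147 CPM in CVS_S_5 and 496 CPM in the next of the other samples.

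Among the UMIs of the 9 genes, Cd22 made up 4.47% [3.79 to 5.23] in the WT and 5.19% [4.29 to 6.21] in the Mini thymic B cell-like cells, below the 7.15% to 13.1% (median 11.1%) of the 16 other samples. In thymic cells with no T cell UMIs the share was 5.53% [3.71 to 7.90] and 5.12% [3.37 to 7.41], and these intervals reach over the lowest of the other samples. Cluster 27, kept apart from the 16 samples, had 4.99% for Cd22 and 19.3% for Blnk, near the thymic values. It differed from them in Syk (36.0%) and Bank1 (26.1%), where the WT thymic cells had 16.7% and 38.9%. The 7 clusters held mostly by 1 sample spanned 4.99% to 7.66% for Cd22. Blnk made up 21.1% [19.8 to 22.6] in the WT and 18.8% in the Mini thymic cells, beside 10.5% to 20.8% (median 11.7%) in the other samples. The highest of these was CVS_S_5, and the next was YD_C_5 at 13.1%, below both thymic values. Cr2, at 3.87% and 3.38%, lay within the wide range of the other samples, 2.75% to 12.0%, but only through CVS_S_5. The next lowest sample was CVS_C_5 at 5.19%, and the clusters held mostly by 1 sample spanned 0.940% to 6.80%. Cd79b made up 1.45% in the WT and 0.602% in the Mini thymic cells, against 1.38% to 2.49% in the other samples.

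**Figure D5:**
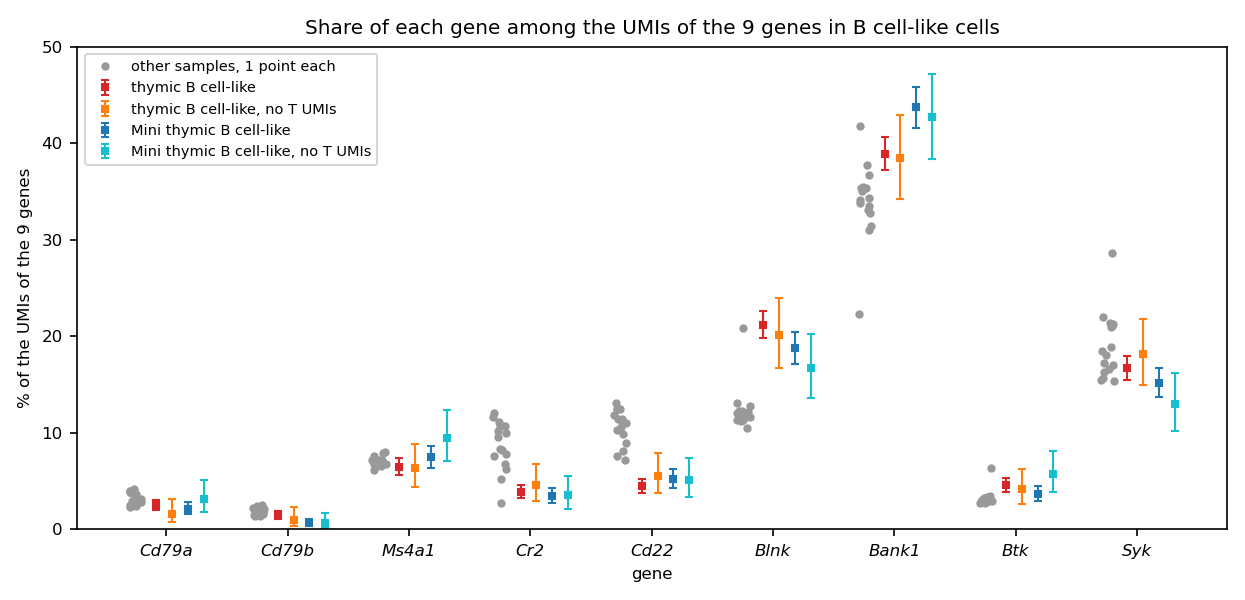
Share of each gene among the UMIs of the 9 genes (%) in B cell-like cells of each of the 16 other samples (grey points), of the WT and Mini thymic samples pooled, and of those thymic cells that held no T cell UMIs. Bars are 95% exact binomial intervals. Thymic Cd22 lies at 4.47% to 5.53%, below the 16 points, and thymic Blnk at 16.7% to 21.1%. Clusters held mostly by 1 sample are not drawn, and 1 of them (cluster 27, 4.99% for Cd22) lies at the thymic value.

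Of the 28 pathway genes, 26 were tested in the thymic B cell-like cells as clustered, and 14 were at least 2-fold lower (10.2% of all genes) and none 2-fold higher (11.2%), with a median log2 ratio of -1.07. In the Mini cells 7 of 26 were lower (6.88% of all genes), with a median of -0.70, and 2 of 27 without cells that held T cell UMIs (13.2%). As clustered, the lowest in the WT cells were the ectoenzyme Cd38 (3.63-fold lower), the phosphatase Ptpn6 (3.45-fold), the exchange factor Vav3 (3.26-fold), the transcription factor Nfatc1 (2.77-fold) and Blk (2.76-fold). Without WT cells that held T cell UMIs, 3 of 27 (against 13.7% of all genes) were at least 2-fold lower, namely Vav3 (6 UMIs, 3.39-fold), Ptpn6 (18 UMIs, 2.01-fold) and Cd24a (2 UMIs). Rasgrp3 was then 2.35-fold higher, where 15.8% of all genes were at least 2-fold higher.

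In thymocytes, the T-lineage cells of the thymic samples, the kinase Syk was the one member with a level alike in both kits. Syk had 66.0 CPM [64.8 to 67.3] in 36417 WT and 66.5 CPM [64.6 to 68.5] in 17850 Mini thymocytes, a ratio of 0.993. The other 8 genes were higher in the WT thymocytes, by 13.4-fold for Cd22 (5.59 against 0.418 CPM), 6.91-fold for Bank1 (27.1 against 3.92 CPM), 6.88-fold for Cr2, 5.68-fold for Ms4a1, 2.80-fold for Cd79a, 2.49-fold for Btk, 2.21-fold for Cd79b and 1.58-fold for Blnk. The share of all genes that were higher in the WT thymocytes was not counted. The WT kit was loaded together with the 16 other samples and the Mini kit with thymus alone, and the part of RNA from the other samples was not tested. Cd79b had 2.29 UMIs per UMI of Cd79a in WT thymocytes (736 against 321) and 2.90 in Mini thymocytes (151 against 52), where B cell-like cells had 0.645.

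Syk, which acts with Zap70 below the pre-T cell receptor, differed between thymocyte clusters. It had 94.1 CPM in the WT and 93.1 CPM in the Mini cells of cluster 25, named DN thymocyte-like, and 70.4 and 80.1 CPM in cluster 7, named DP thymocyte-like. In cluster 12, led by Itm2a and with Tox among its leading genes, it had 28.7 CPM and 13.2 CPM. Btk followed in cluster 25, with 12.8 CPM [10.7 to 15.3] in the WT and 10.2 CPM [7.37 to 13.7] in the Mini cells, against 3.62 and 1.45 CPM in all thymocytes.

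Across 56 clusters of all cells, the genes whose level was most like that of Cd79a, Cd22, Ms4a1 and Bank1 included the B cell transcription factors Pax5 and Ebf1. By Pearson's r of log2(CPM + 1) among 19719 genes, the nearest to both Cd79a and Cd22 included Pax5 (0.99) and Ebf1 (0.99). The nearest to Ms4a1 were Ebf1 (0.99), Bcar3 (0.99) and Pax5 (0.99), those to Bank1 were Ebf1 (0.99), Pax5 (0.99) and Ms4a1 (0.99), and those to Blnk were Ebf1 (0.98), Bcar3 (0.98) and Cd79a (0.98). Cd79b was nearest to Srpk3 (0.99), Cd79a (0.98) and Fcmr (0.98), and Cr2 to Cd22 (0.96), Chst3 (0.96) and Fcer2a (0.96). The kinases stood apart, with Btk nearest to Marchf1 (0.98), Napsa (0.98) and the Src-family kinase Lyn (0.98), and Syk to ENSMUSG00000120328 (0.95), Lyn (0.95) and Gm11787 (0.95). The clusters share libraries and differ in depth, so these values are descriptions.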

How the data were processed

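UMI counts per cell and gene of the Parse WT kit (20 samples) and the Parse Mini kit (4 samples) were analysed, with each cell assigned to its tissue sample by the deposited cell tables, since the labels describe sublibraries. The authors mapped reads with split-pipe to an mm10 index from Ensembl and deposited the combined counts without normalization. The sources used here name no split-pipe version, and the 10x libraries were not analysed here. The deposited WT samples held between 5405078 and 124106974 UMIs. Cells were kept between 500 and 25000 UMIs, with mitochondrial UMIs no higher than 15%, as in the study's methods.

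Cells were clustered without the 9 genes and without doublet removal (2000 variable genes, 40 principal components, 20 neighbours, Leiden resolution 2, with 3 as the higher resolution), using scanpy 1.11.5, leidenalg 0.10.2 and igraph 0.11.9 in Python 3.11.15. A class name needed at least 3 raised markers and more than 50% of its list (index of at least 0.2 and at least 10 UMIs). The index is the CPM of a cluster over that of the second-highest large cluster, so a raised marker can lie well below its level elsewhere. Clusters with markers of another lineage, or shallow ones, stayed unnamed, and these limits were set after the clusters had been seen. Where a cluster held enough cells of the other samples, markers were read in those cells alone. The limit on other lineages was then not applied to its thymic cells. CPM used UMIs outside the ribosomal RNA genes Rn18s-rs5, mt-Rnr1 and mt-Rnr2. Thinned shares are exact expectations at 1000 UMIs. A difference counted when the ratio of pooled CPM was at least 2 with at least 50 CPM in either class. All 9 genes, the 5 highest pathway genes per direction and the 3 most similar genes were named by rule, except 1 that is not reported here, and leading genes of clusters were named after they were seen. The members, the 28 pathway genes and the marker lists were chosen with earlier results of these data known. Intervals are at 95% and cover counting error only. Procedures were tested on simulated data.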

Additional observations from a re-analysis of the deposited data

Results flagged for a closer look

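Of 36 sets of 4 thymic samples (9 genes in B cell-like and in T-lineage cells of either kit), 2 had 1 sample apart from the rest by Dixon's criterion, and chance marks about 1 set in 20. The 4 samples of a kit came from 2 mice. In B cell-like cells Bank1 was at 1794 CPM (222 UMIs) in tenxP_1, against 1138 to 1230.3 CPM in the other WT thymic samples. In T-lineage cells Cr2 was at 6.68 CPM (270 UMIs) in tenxP_2, against 3.98 to 4.32 CPM.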

How the results depend on the processing

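All 9 genes were at least 2-fold higher in B cell-like than in non-B cells under each alternative, and 8 or 9 were lower in plasma cell-like cells. The count of genes lower in thymic B cell-like cells, 7, was 4 without cells that held T cell UMIs, 2 with classes from a gate on marker UMIs and 0 with clusters at a higher resolution, where 43 thymic cells kept the name. The causes of the last 2 were not tested. It was 7 or 8 without each thymic sample in turn, 8 by medians over samples, 9 at a 1.5-fold size and 5 with the Mini samples. For this count the share of all genes was known only as clustered, without cells that held T cell UMIs and for the Mini samples. The median share over the 9 genes of B cell-like cells with a UMI, 38.9% at 1000 UMIs, was 62.0% at 2000 UMIs and 64.7% without thinning, since more UMIs per cell were then counted. Added after the data were seen, the B cell-like clusters held mostly by 1 sample gave 9, 8 and 7 genes and 39.4%. Non-B or plasma cell-like cells without UMIs of Pax5 or Ebf1 gave 9 and 9, and thymic cells of cluster 45 alone gave 7. No paired analysis was made because no result comes from a test. Classes were set against each other within single samples by direction only. With 208 and 90 thymic B cell-like cells, and 5 and 3 UMIs of Cd79b in those without T cell UMIs, depth limits Cd79a and Cd79b most.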

Other observations

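In B cell-like cells of the 16 samples without a group in the labels, Cr2 was at 1130, 1212, 1128, 1111 and 1099 CPM in YD_C_1 to YD_C_5, at 822, 517, 839, 804 and 496 CPM in CVS_C_1 to CVS_C_5, and at 684, 631, 523, 770.3, 147 and 575 CPM in CVS_S_1 to CVS_S_6. What the names stand for is not stated, and the samples differ in the clusters their B cell-like cells lie in, over which Cr2 spanned 6.71-fold, so these values are given sample by sample with no comparison.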
